A study of Mus musculus with 6 samples.

Results

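The chemokine cluster described here comprises Ccl5, Ccl9, Ccl6, Ccl3 and Ccl4, which lie in that order on mouse chromosome 11, and every ATAC-seq peak that overlapped one of these 5 gene bodies or the 20 kb on either side of it. Peaks of 6 samples were merged into 112852 regions across the genome, and 35 of them belonged to the cluster. A region was selected on having a peak in at least 1 sample, so the presence of peaks chose the regions and is given as a description. The cells were L-GMPs, the leukemic granulocyte-macrophage progenitors that serve as LSCs (leukemia stem cells) in the murine MLL-AF9 model of acute myeloid leukemia, labelled WT for genotype and grown in RPMI1640 with FBS and mouse IL3. There were 3 control samples and 3 samples treated, per the labels, with MMF (mycophenolate mofetil) for 24 h. The methods and a legend of the study differ in the dose and duration of this treatment. The labels do not say whether the samples came from separate mice or cultures, so p-values measure only the spread between these samples, which may be technical.

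ATAC-seq marks open chromatin by the places where the Tn5 transposase inserts sequencing adapters. MMF blocks inosine monophosphate dehydrogenase, which makes guanine nucleotides. CC chemokines are small secreted proteins that draw leukocytes through G protein-coupled receptors. Ccl3 (MIP-1α), Ccl4 (MIP-1β) and Ccl5 (RANTES) are inflammatory chemokines, of which Ccl3 and Ccl5 act on Ccr1, and Ccl6 (C10) and Ccl9 (MIP-1γ) are rodent chemokines of myeloid cells that also act on Ccr1. Macrophages and other myeloid cells make Ccl3, Ccl4, Ccl6 and Ccl9, and Ccl5 is best known from T and NK cells.

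The regions were numbered R1 to R35 along the chromosome, and the sequences of 7 of them are given first because the results turn on them. The Ccl6 start entry is the part of R19 upstream of the Ccl6 transcription start (chr11:83593088-83593235), which had a peak in every MMF sample and no control sample, as did R20 (chr11:83593549-83593748). R21 (chr11:83595808-83596007) was the next region upstream of Ccl6 and was open in every sample, and R23 (chr11:83604765-83604964) was one of a group further upstream with more signal in MMF. R29 (chr11:83640278-83640477) lies downstream of Ccl3, and the Ccl3 start entry is a part of R31 upstream of Ccl3 (chr11:83649379-83649578). As written, that entry ends next to the RefSeq start of Ccl3, a short way upstream of the GENCODE start (position 83649355) used for all distances. R4 (chr11:83528110-83528309) lies in an intron of Ccl5. All are from the minus strand of GRCm38, which is the strand of Ccl6, Ccl3 and Ccl5, written 5′ to 3′, and none overlaps an exon of GENCODE M21. Capitals mark matches to the C/EBP, PU.1, RUNX, AP-1, NF-kB or CTCF motif, except in the Ccl6 start entry, where they mark a repeated run.
Ccl6 start: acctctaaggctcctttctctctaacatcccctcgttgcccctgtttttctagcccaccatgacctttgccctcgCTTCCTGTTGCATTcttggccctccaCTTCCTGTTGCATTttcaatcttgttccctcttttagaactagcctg
R20: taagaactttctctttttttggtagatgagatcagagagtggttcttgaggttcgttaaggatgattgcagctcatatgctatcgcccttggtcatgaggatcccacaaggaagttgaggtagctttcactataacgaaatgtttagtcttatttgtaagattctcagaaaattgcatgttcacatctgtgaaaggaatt
R21: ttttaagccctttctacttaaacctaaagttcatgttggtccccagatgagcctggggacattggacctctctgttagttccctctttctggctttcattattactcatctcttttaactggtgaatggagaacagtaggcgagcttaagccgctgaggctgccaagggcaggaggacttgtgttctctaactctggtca
R23: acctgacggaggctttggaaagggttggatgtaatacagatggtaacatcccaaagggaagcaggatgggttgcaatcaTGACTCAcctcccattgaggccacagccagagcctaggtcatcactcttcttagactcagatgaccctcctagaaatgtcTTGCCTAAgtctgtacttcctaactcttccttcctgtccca
R29: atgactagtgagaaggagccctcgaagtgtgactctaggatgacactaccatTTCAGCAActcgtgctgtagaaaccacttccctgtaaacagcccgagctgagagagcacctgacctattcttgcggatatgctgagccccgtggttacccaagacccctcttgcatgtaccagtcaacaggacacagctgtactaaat
Ccl3 start: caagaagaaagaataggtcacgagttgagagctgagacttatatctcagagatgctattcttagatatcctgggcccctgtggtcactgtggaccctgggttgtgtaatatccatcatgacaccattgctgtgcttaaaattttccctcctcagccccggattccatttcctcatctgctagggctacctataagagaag
R4: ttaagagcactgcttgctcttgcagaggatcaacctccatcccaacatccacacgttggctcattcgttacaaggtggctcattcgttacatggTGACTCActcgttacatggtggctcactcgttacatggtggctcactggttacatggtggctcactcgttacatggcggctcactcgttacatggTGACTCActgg

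The stretch upstream of Ccl6 held 2 copies of a run of 14 bases and no match to any of the 6 motifs searched. The stretch of R4 given above consisted largely of a tandem repeat, and its 2 AP-1 matches lay in that repeat. In this stretch 72.9% of the bases were the same as the base 19 positions on. The rest of R4 was not examined for repeats. How the authors treated reads that map to more than one place was not given in the sources used here, so the signal of R4 is uncertain. R23 held a C/EBP and an AP-1 match and R29 a C/EBP match.

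Each deposited peak gives a fold enrichment and a p-value, from which the number of reads over its summit was recovered. These reads divided by the genome-wide background of the sample are called the signal, so that a signal of 1 is the background level and samples of unequal depth share a scale. The background was between 0.620 and 0.729 reads in the control samples and between 0.676 and 0.909 in the MMF samples. The control lists held 58496 to 63911 peaks and the MMF lists 80893 to 86556. Median summits in the cluster held 14 to 18 reads in control and 22 to 23 in MMF, so single peaks rest on few reads.

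Of 8 L-GMP marker genes, 5 (Kit, Hoxa9, Meis1, Spi1 and Cebpa) had a promoter peak in all 6 samples. Cd34 had one in 3 control and 2 MMF samples, Fcgr3, which encodes a CD16/32 receptor, in 1 control and 3 MMF samples, and Mpo, the myeloperoxidase gene of granulocyte progenitors, in none. Promoter signal summed over the list ran from 417 to 427 in control and from 396 to 462 in MMF, but single genes separated in both directions. It was lower in every MMF sample at Hoxa9 (63.1 to 69.4 in control, 48.4 to 53.8 in MMF), Meis1 (85.5 to 114, 76.9 to 79.3) and Cebpa (132 to 145, 96.1 to 122), and higher at Spi1 (49.4 to 59.3, 61.6 to 85.7) and Fcgr3 (0 to 37.1, 47.3 to 51.7). The 8 genes of mature granulocytes or monocytes summed to 118 to 140 in control and 243 to 251 in MMF, with no overlap. Of these, Itgam, S100a8, S100a9, Csf1r and Ltf were higher in every MMF sample, and Cd14, Ly6g and Adgre1 overlapped between the groups. The 4 B-cell markers had no promoter peak in any sample, 6 of the 7 T and NK markers had none, and Klrb1c had one in a single MMF sample. The 3 erythroid markers summed to 122 to 132 in control and 112 to 116 in MMF. A shift in the mix of cells and a change inside each cell cannot be told apart in bulk samples.

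The cluster held more peaks and more signal after MMF. The control samples had 21, 22 and 20 cluster peaks and the MMF samples 29, 30 and 27. These peaks made up between 0.0329% and 0.0354% of each control list and between 0.0334% and 0.0348% of each MMF list, so the count rose in step with the length of the lists. Summed over the 161750 bp of the merged windows, the signal was 656, 712 and 642 in control and 1077, 1123 and 1041 in MMF. Every MMF sum was above every control sum, and the means were 670 ± 36.9 and 1080 ± 41.5 (SD, n = 3 each), a ratio of 1.61 (two-sided exact permutation test, p = 0.1, below which a design with 3 samples a group cannot go). Peaks covered 6920 ± 340 bp in control and 9016 ± 682 bp in MMF (SD, n = 3). The mean signal per peak was 31.9 ± 0.583 in control and 37.7 ± 0.742 in MMF (SD, n = 3), again without overlap (exact permutation test, two-sided, p = 0.1). Over all peaks of the lists the summed signal had a ratio of 1.18 between the groups, and the mean signal per peak was 45.1 ± 1.91 in control and 38.6 ± 1.25 in MMF (SD, n = 3).

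**Figure D1:**
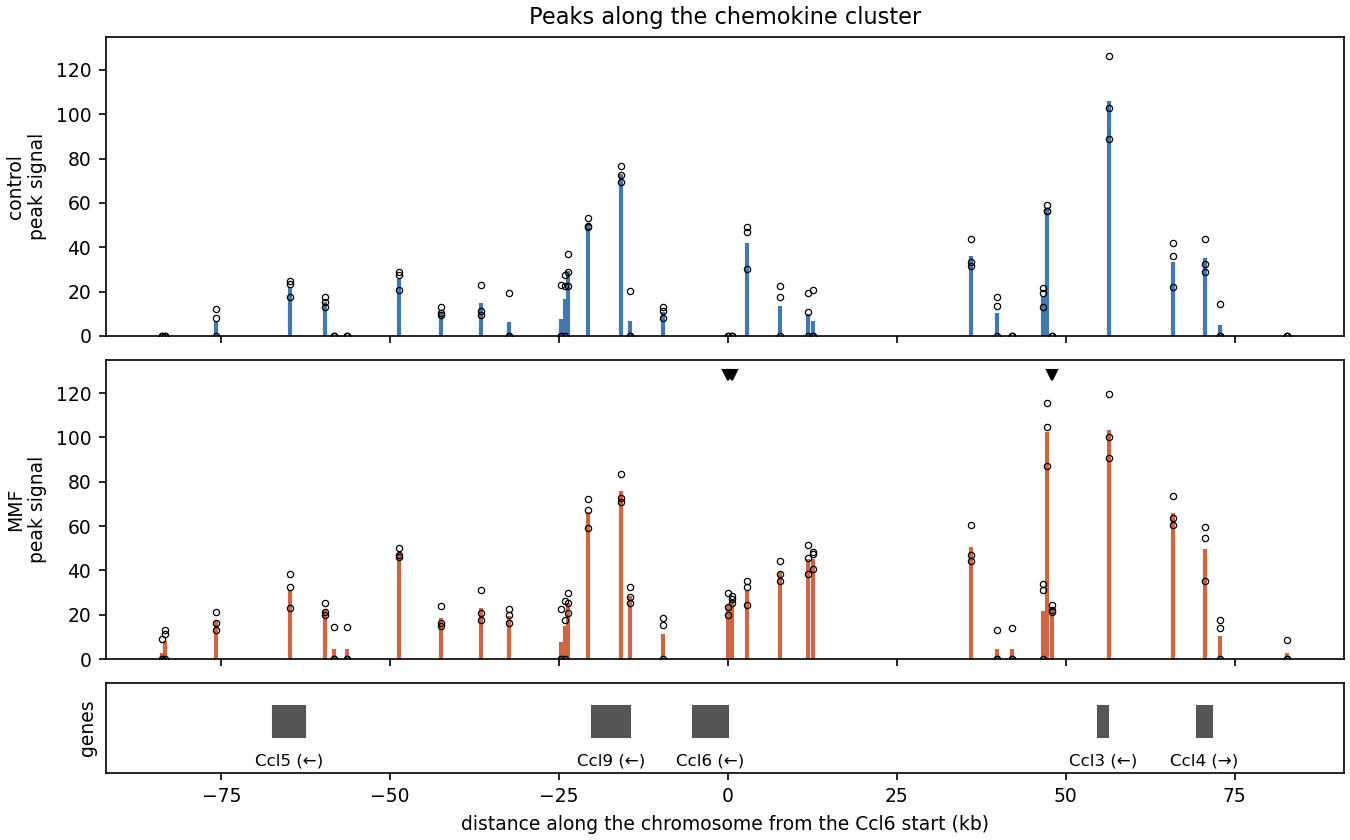
Mean peak signal (summit reads per unit of genome-wide background; bars) and the signal of each sample (circles, 0 where no peak was called) of the 35 regions, against distance from the Ccl6 start in kb, for 3 control samples (upper panel) and 3 MMF samples (middle panel), with the 5 genes and their direction below. Triangles mark the 3 regions with a peak in every MMF sample and no control sample, of which 2 sit at the Ccl6 start, and the highest bar in both panels is the region at the Ccl3 start.

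By presence of peaks, 3 of the 35 regions were gained, that is, found in every MMF list and in no control list, against 6.0% of all regions, and 0 were lost, against 0.182%. In all 6 lists a peak was found for 14 regions, against 36.5% of all regions. Another 18 were found in some lists only. Of the 35, 16 had peaks in more MMF than control lists, 3 in more control than MMF lists and 16 in as many of each. R18, R26 and R28 were the 3 with more control lists. The matching shares of all regions were not computed. As the MMF lists were longer, these counts are not a result about the cluster. With every list shortened to the same length, 2 of 29 cluster regions were gained and 0 lost, while genome-wide the counts went from 6772 gained and 205 lost to 2027 and 1173.

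Of the 3 gained regions, 2 lay at the start of Ccl6. R19 (chr11:83592914-83593235) had its summit 11 bp upstream of the transcription start of Ccl6 (chr11:83587882-83593087, minus strand). Its signal was 29.7, 19.8 and 23.7 in the MMF samples, at percentile ranks of 57.0, 25.3 and 41.6 by fold enrichment within the list. R20 (chr11:83593487-83593842) had its summit 561 bp upstream, with signals of 28.6, 26.9 and 25.1 and ranks of 52.7, 47.6 and 41.6. Both were therefore peaks of middle or lower rank in every MMF sample. In each control list, peaks at a local background within 10% of that of the neighbouring R21 were called with as few as 6 or 7 summit reads, a signal of 8.23, 10.1 and 9.67. The signals of R19 and R20 in MMF were above these limits in every sample. The weakest peaks of each MMF list at a background within 10% of that of R21 were also above them, so passing these limits is little of a test. The limits are for the background of R21, and limits for R19 and R20 themselves were not computed. Whether the calling threshold hid control signal at R19 and R20 was not tested. The third gained region, R30 (chr11:83640914-83641111), lay between genes 8300 bp downstream of the Ccl3 start and was among the weakest peaks, with signals of 24.2, 21.2 and 22.2 over a local background 5.49, 5.10 and 4.99 times that of the genome, and ranks of 4.43, 1.61 and 4.67.

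The starts of the other chemokine genes differed among themselves. The Ccl3 start lay in R31 (chr11:83649105-83649969), the region of highest mean rank in the cluster, whose summit was 196 bp upstream. Its signal was 126, 103 and 88.7 in control and 100.1, 90.7 and 120 in MMF, so the groups overlapped and the means had a ratio of 0.978. The Ccl9 start lay in R17 (chr11:83578196-83578650, summit in the UTR), which had a peak in 1 control sample, at a signal of 20.2, and in all 3 MMF samples, at 25.3, 32.6 and 28.1. Ccl4 had no peak centred on its start: R33 (chr11:83663414-83663907) had its summit in an intron 1184 bp downstream, with signals of 43.9, 28.9 and 32.2 in control and 59.4, 35.4 and 54.7 in MMF. Ccl5 had no peak within 1000 bp of its start in any sample, and its nearest regions were R4, 2309 bp downstream, and R5, 2904 bp upstream.

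For each gene the signal was summed over the peaks in its window, the gene body and 20 kb on either side. The Ccl9 and Ccl6 windows share 10 regions with each other, and the Ccl3 and Ccl4 windows share 4, so neighbouring windows are not independent. All 5 windows were called higher with MMF by limma, fitted to log2(signal + 10) over 16715 protein-coding genes, where 30.5% of genes were called higher and 0.742% lower. The groups did not overlap for any of the 5, as for 42.4% of all genes tested. The median log2 difference over all genes was 0.20, and that of the 5 windows was 0.52. With every sample centred on its own median gene, 3 of the 5 (Ccl5, Ccl6 and Ccl3) were called higher, against 13.1% of genes, and none lower. Centring left 2184 genes higher and 1500 lower, in place of 5094 and 124. As the 5 genes were picked with earlier results of these data known, their count is not independent evidence of a direction. The summed promoter signal of the mature myeloid markers moved with them, from 118 to 140 in control to 243 to 251 in MMF, and its part in these calls was not tested.

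**Figure D2:**
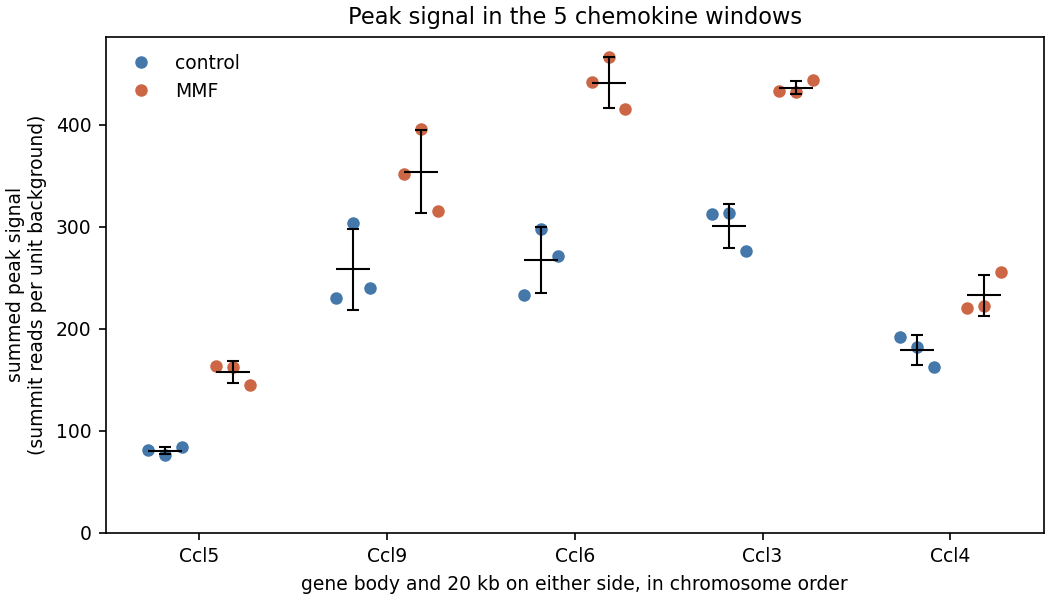
Summed peak signal (summit reads per unit of genome-wide background) in the gene body and 20 kb on either side of the 5 genes, one point per sample, with the mean and SD (bars, n = 3) of control and MMF. Every MMF point lies above every control point of the same gene, by the widest ratio at Ccl5 (1.95) and the narrowest at Ccl4 (1.30).

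Ccl6 had the second largest log2 difference of the 5. Its window signal was 233, 298 and 271 in control and 442, 466 and 415 in MMF. The log2 difference was 0.71 ± 0.11 (SE, limma, adjusted p = 0.00283), which is above 89.1% of all genes tested, and 0.49 ± 0.10 after centring (adjusted p = 0.0180). Leaving out each sample in turn gave adjusted p-values between 0.00416 and 0.0156. The window held 7, 9 and 8 peaks in control and 12, 12 and 11 in MMF. Peaks covered 2394 ± 246 bp and 3425 ± 112 bp (SD, n = 3), with a mean signal per peak of 33.4 ± 0.391 and 37.8 ± 0.997.

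Regions with a peak in all 6 lists gave the Ccl6 window 193, 197 and 195 in control and 189, 221 and 183 in MMF, so the groups overlapped. With these shared regions alone, the log2 difference of the Ccl6 window was 0.01 ± 0.09 (SE, limma, adjusted p = 0.936), and 2 windows, Ccl5 and Ccl3, were called higher, against 12.1% of genes. The other regions of the window gave 39.8, 101 and 75.8 in control and 253, 245 and 232 in MMF. In the full window a region without a call counts as 0. Keeping shared regions alone removes every region that lacked a call in any sample, control or MMF. How far either treatment changes the difference was not tested.

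Besides R19 and R20, the other regions of the Ccl6 window were led by a group upstream of the gene, in introns of the long noncoding gene E230016K23Rik, which spans Ccl6 on the opposite strand and had no promoter peak in any sample. R22 (chr11:83600610-83600938, 7669 bp upstream of the Ccl6 start) had no control peak in sample 1, signals of 17.4 and 22.6 in the others, and 35.2, 38.2 and 44.3 in MMF. R23 (chr11:83604664-83604992, 11777 bp upstream) had signals of 10.98 and 19.3 in control samples 1 and 3, no peak in control sample 2, and 51.7, 38.2 and 45.8 in MMF. R24 (chr11:83605367-83605899, 12620 bp upstream) had a peak in control sample 1 only, at 20.6, and signals of 40.7, 48.2 and 47.3 in MMF. These 3 regions were named after their values were seen, so their differences are a description. The local background around R23, relative to the genome, was 1.75 and 1.81 in the control samples with a peak and 4.11, 3.80 and 4.19 in MMF.

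R21 (chr11:83595729-83596267), 2820 bp upstream of the Ccl6 start, went the other way. Its signal was 30.2, 49.2 and 46.8 in control and 24.2, 35.4 and 32.5 in MMF, with overlap between the groups. Its percentile rank was 67.2, 84.3 and 79.7 in control and 21.1, 51.9 and 41.9 in MMF, without overlap. The difference in normal scores of these ranks was -1.08 ± 0.26 (SE, limma, adjusted p = 0.0514), just outside the threshold. Its rank is set by the fold over the local background, which rose from 2.14, 2.45 and 2.59 times the genome in control to 3.81, 3.80 and 4.10 times in MMF. It was called lower when scores were ranked among the shared regions alone (adjusted p = 0.0418), and over the 13 alternatives its adjusted p ran from 0.0356 to 0.224.

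Ccl9, whose window overlaps that of Ccl6, was called with all samples and not in most fits on fewer. Its window signal was 231, 304 and 240 in control and 352, 395 and 315 in MMF. The log2 difference was 0.45 ± 0.13 (SE, limma, adjusted p = 0.0357), and 0.22 ± 0.12 after centring (adjusted p = 0.210). It was called in 2 of the 6 fits with a sample left out: without control sample 1, control sample 3, MMF sample 1 or MMF sample 2 the adjusted p was 0.105, 0.0954, 0.0867 and 0.119. Shared regions gave overlapping sums of 203, 220 and 206 in control and 207, 252 and 204 in MMF. The strongest region at Ccl9 was R16 (chr11:83577026-83577624) in an intron, 1324 bp inside the gene. Its signal was 76.8, 69.4 and 72.6 in control and 72.6, 83.6 and 71.0 in MMF, and the groups overlapped. R15 (chr11:83572288-83572607), just past the end of the gene, had 49.4, 49.2 and 53.2 in control and 67.1, 72.2 and 59.1 in MMF, without overlap (log2 difference 0.38 ± 0.16, adjusted p = 0.130).

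Ccl5 had the largest log2 difference of the 5 windows and the lowest level. Its window signal was 81.0, 76.7 and 83.8 in control and 164, 163 and 145 in MMF. The log2 difference was 0.88 ± 0.09 (SE, limma, adjusted p = 0.000851), above 93.8% of all genes tested, and 0.66 ± 0.09 after centring (adjusted p = 0.00486). It was called higher in all 17 alternative fits, with adjusted p-values between 0.000371 and 0.00693. Shared regions alone gave 68.6, 76.7 and 75.8 in control and 106, 130 and 123 in MMF, without overlap. R8, between genes upstream of the Ccl5 start, was called higher on ranks with all samples, a call lost in 10 of 13 alternatives, and had signals of 20.6, 28.9 and 27.4 in control and 46.2, 46.7 and 50.3 in MMF. R8 ranked at percentiles of 67.9, 78.3 and 74.5 in control and 91.6, 91.8 and 96.3 in MMF. R9 (chr11:83550175-83550893, 20067 bp upstream) had 9.60, 10.1 and 12.9 in control and 16.5, 24.1 and 14.8 in MMF, and was called on the log2 of the signal (adjusted p = 0.0389) but not on ranks of fold enrichment (adjusted p = 0.0658).

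The region in the Ccl5 intron that holds the tandem repeat, R4 (chr11:83527957-83528515), had signals of 23.3, 24.6 and 17.7 in control and 23.1, 38.2 and 32.5 in MMF, and the groups overlapped. R5 (chr11:83533121-83533724) had 15.1, 13.0 and 17.7 in control and 19.8, 21.2 and 25.1 in MMF, without overlap. The promoter of Heatr9, the next gene downstream of Ccl5, had no peak in any sample, and that of Taf15, an RNA-binding protein gene whose end reaches into the Ccl5 window, had 141, 165 and 184 in control and 154, 169 and 151 in MMF, with overlap.

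Ccl3 and Ccl4, which draw monocytes and other leukocytes, had smaller differences than Ccl5 and Ccl6. The Ccl3 window signal was 313, 314 and 276 in control and 433, 432 and 443 in MMF, a log2 difference of 0.52 ± 0.09 (SE, limma, adjusted p = 0.00421; after centring 0.30 ± 0.09, adjusted p = 0.0492). The Ccl4 window signal was 192, 182 and 163 in control and 220, 222 and 256 in MMF, a log2 difference of 0.36 ± 0.10 (adjusted p = 0.0323; after centring 0.14 ± 0.11, adjusted p = 0.378). Ccl3 was called without each sample in turn, with adjusted p-values between 0.00958 and 0.0179. Ccl4 was called without control sample 1 only. Without control sample 2, control sample 3, MMF sample 1, MMF sample 2 or MMF sample 3 its adjusted p was 0.0631, 0.0967, 0.0557, 0.0641 and 0.0945. With the replicate number as a block the adjusted p of Ccl4 was 0.0699.

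The difference at Ccl3 lay away from its start. With windows of 5 kb on either side the log2 difference of Ccl3 was -0.03 (adjusted p = 0.928), while that of Ccl4 was 0.71 (adjusted p = 0.00391), those of Ccl5 and Ccl6 were 0.53 and 0.73 (adjusted p = 0.00693 and 0.0155), and that of Ccl9 was 0.23 (adjusted p = 0.320). R29 (chr11:83640143-83640760), between genes 8978 bp downstream of the Ccl3 start, had signals of 56.3, 59.3 and 56.4 in control and 115, 105 and 87.2 in MMF, and its MMF values reached the level of the Ccl3 start itself. Its local background was 2.96, 3.12 and 3.19 times the genome in control and 5.44, 5.08 and 4.97 times in MMF. R32 (chr11:83658755-83659259), 3626 bp upstream of Ccl4 and between the 2 genes, had 22.0, 36.2 and 41.9 in control and 60.5, 73.7 and 63.6 in MMF. R25 (chr11:83628685-83629241), 20356 bp downstream of the Ccl3 start, had 31.6, 33.3 and 43.5 in control and 60.5, 46.7 and 44.3 in MMF. None of R29, R32 and R25 overlapped between the groups. Rpl9-ps1, a gene labelled protein-coding between R29 and Ccl3, had no promoter peak in any sample.

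Tested one by one, few of the 14 shared regions passed. Fold enrichments were ranked within each list and turned into normal scores, on which limma called 1 of the 14 higher, R8 (score difference 0.88 ± 0.19, SE, adjusted p = 0.0397), and 0 lower. Over all 41182 shared regions 5.83% were called higher and 0.185% lower. At an unadjusted p under 0.05, 7 of the 14 were higher, against 22.3% of shared regions, and 1, R21, was lower, against 2.62%. Leaving out each sample in turn kept the score difference of R8 between 0.75 and 0.96, with adjusted p-values between 0.0630 and 0.103. Without control sample 1, 2 or 3, limma still called 1707, 1589 and 1309 regions of the genome higher. R8 was not among them (adjusted p = 0.0863, 0.0630 and 0.0814). Without any one of the MMF samples, 0 regions of the genome were called, so the loss of the call there says nothing about R8. With the replicate number as a block its adjusted p was 0.0662. The MMF lists were longer, and the median score difference of all shared regions was 0.17. With scores ranked among the shared regions alone, 594 regions of the genome were higher and 175 lower in place of 2402 and 76, and of the 14, 0 were higher and 1, R21, was lower.

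On the log2 of the signal, 4 of the 14 were called higher by limma, against 18.6% of shared regions, and 0 lower, against 0.969%. These were R32 (log2 difference 1.03 ± 0.24, SE, adjusted p = 0.0149), R8 (0.91 ± 0.18, adjusted p = 0.00770), R29 (0.83 ± 0.17, adjusted p = 0.00873) and R9 (0.74 ± 0.22, adjusted p = 0.0389). The MMF signal was above every control signal in 7 of the 14, against 29.1% of shared regions, and below in 0. The median log2 difference was 0.50 in the 14 and 0.17 in all shared regions. After centring each sample on its median region, 0 of the 14 were called higher and R21 was called lower, and genome-wide 2841 were higher and 5715 lower. R32, R8, R29 and R9 kept differences of 0.68, 0.56, 0.47 and 0.39 (adjusted p = 0.0633, 0.0515, 0.0657 and 0.191), while the median shared region went to -0.19.

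**Figure D3:**
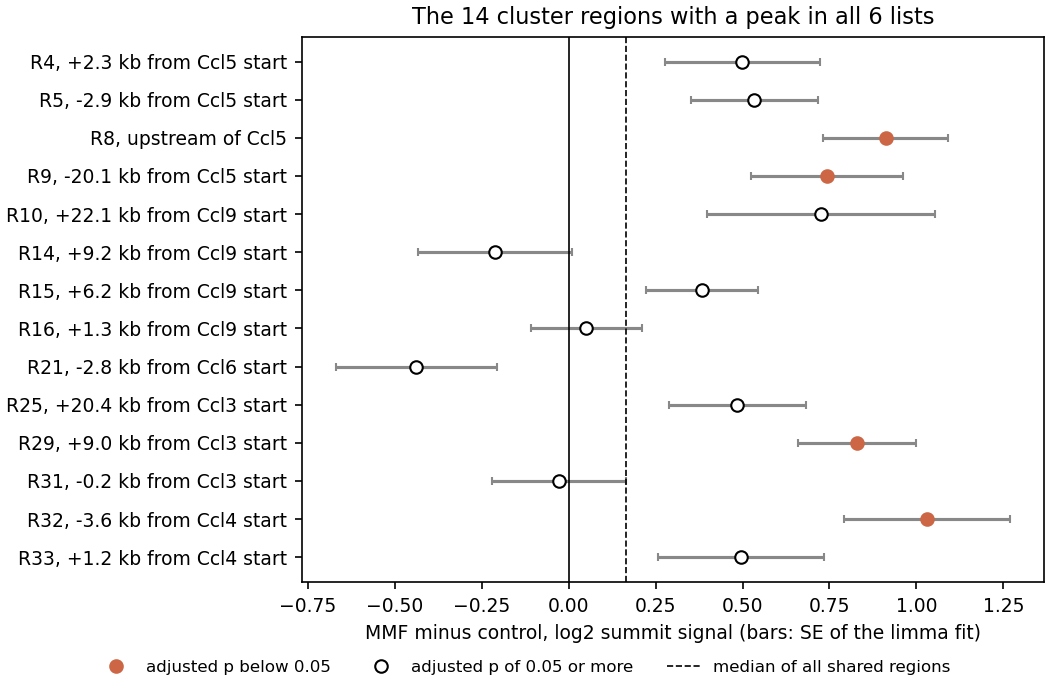
Difference in log2 summit signal, MMF minus control, of the 14 cluster regions with a peak in all 6 lists (points, with SE of the limma fit as bars), labelled by the nearest of the 5 starts and, for all but R8, the distance from it, negative upstream. The 4 filled points (R8, R9, R29 and R32) passed an adjusted p of 0.05, and R14, R21 and R31 lie below 0.

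Per length of window, the order of the genes was the same in both groups. In control, the signal per kb was 7.25 ± 0.523 at Ccl3, 5.91 ± 0.719 at Ccl6, 5.65 ± 0.869 at Ccl9, 4.25 ± 0.353 at Ccl4 and 1.80 ± 0.0809 at Ccl5 (SD, n = 3). In MMF it was 10.5 ± 0.150, 9.76 ± 0.561, 7.74 ± 0.880, 5.53 ± 0.475 and 3.51 ± 0.239 (SD, n = 3). Ccl6 and Ccl9 did not differ beyond their spread in control. No other pair of neighbours in these orders overlapped, though Ccl3 and Ccl6 came close, at 6.64 and 6.59 in the nearest control samples.

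The chemokine windows elsewhere were read from the same fit. Of 16 CC ligands outside the cluster, 12 had enough signal to be tested, and Ccl19 and Ccl21a had no peak in any sample. Of the 12, 5 were called higher (Ccl2, Ccl7, Ccl11, Ccl1 and Ccl17), 0 lower at either the adjusted or an unadjusted p of 0.05, and 7 were not called, beside 30.5% of all genes called higher and 0.742% lower. After centring, 4 of the 12 were called higher, beside 13.1%. The largest rise was at Ccl2, the monocyte attractant MCP-1, in the second CC cluster of chromosome 11, with a signal of 74.1, 65.1 and 56.4 in control and 227, 227 and 237 in MMF (log2 difference 1.68 ± 0.11, SE, limma, adjusted p = 0.000331). Of the 14 CXC and CX3C ligands tested, 5 were higher (Cx3cl1, Cxcl12, Cxcl1, Cxcl2 and Cxcl16), a share close to the 30.5% of all genes, and 0 lower, also at an unadjusted p of 0.05, with the largest difference at Cx3cl1 (1.13 ± 0.24, adjusted p = 0.00987). The medians of the 2 lists were 0.44 and 0.43, beside 0.20 for all genes. Windows of neighbouring ligands overlap, and Pf4 and Ppbp had the same peaks. Owing to its long annotated gene body, the window of Ccl1 was 169 kb long, against 41.9 kb for Ccl2.

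Of the receptors, Ccr1 was called higher and Ccr3 was not called. Ccr1, the receptor of Ccl3, Ccl5, Ccl6 and Ccl9, had a window signal of 185, 184 and 210 in control and 309, 322 and 333 in MMF (log2 difference 0.71 ± 0.09, SE, limma, adjusted p = 0.00148), and it was still called after centring (adjusted p = 0.0134). Ccr3, another receptor of Ccl5, had a difference of 0.13 ± 0.11 (adjusted p = 0.413).

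**Figure D4:**
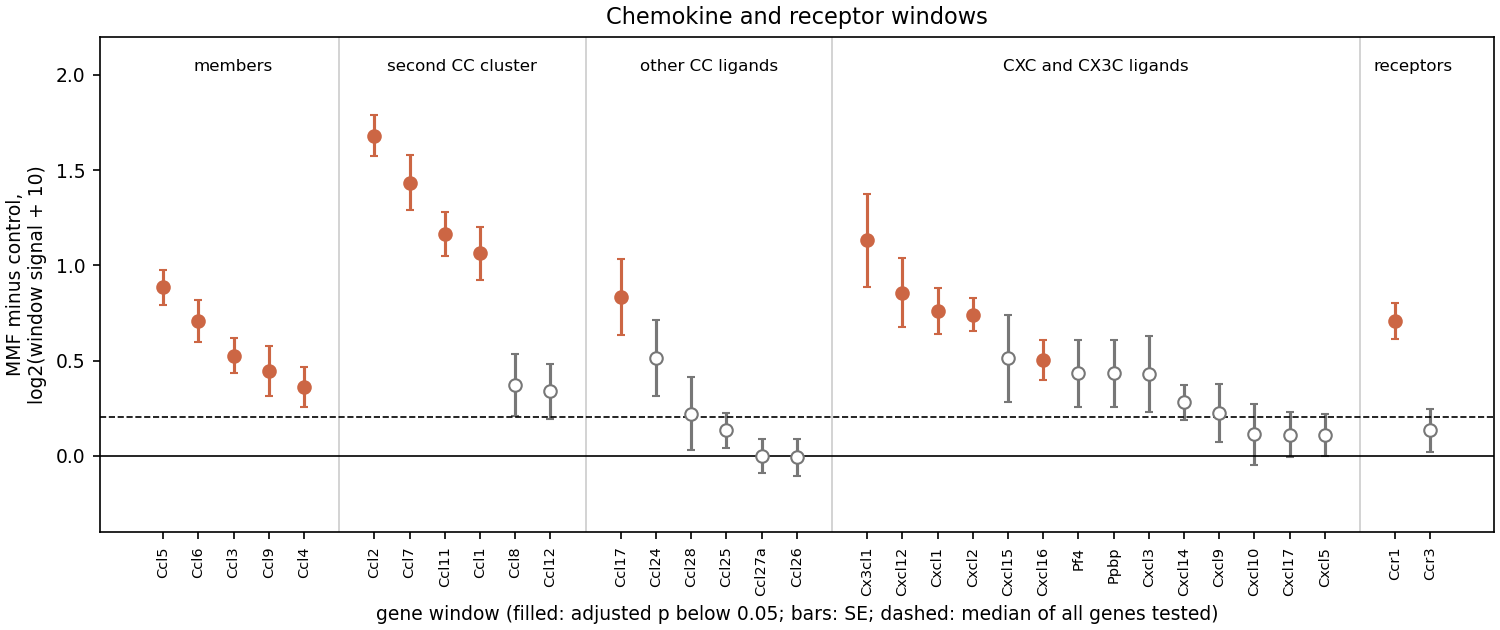
Difference in log2(window signal + 10), MMF minus control, for the 5 cluster genes, the second CC cluster of chromosome 11, other CC ligands, CXC and CX3C ligands and the receptors Ccr1 and Ccr3 (points, with SE of the limma fit as bars), with filled points for an adjusted p below 0.05 and a dashed line at the median of all genes (0.20). The 5 cluster genes lie between 0.36 and 0.88, below Ccl2, Ccl7, Ccl11 and Ccl1 (a window of 169 kb) of the second cluster.

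The genes whose window pattern was most like that of Ccl6 over the 6 samples were Myo1f, Itpripl2 and Hadh, each with a Pearson r of 0.998 on log2(signal + 10). The 6 points fall into the 2 groups and share the depth of their sample, and 1141 of the 16706 genes compared had an r above 0.95, so a high r was common. Myo1f, a myosin of leukocytes, had 155, 187 and 174 in control and 258, 259 and 238 in MMF.

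Both strands of the 200 bp at the summit of every region were searched for motif matches. The C/EBP motif (TTGCNNAA) was found in 8 of the 35 cluster regions (22.9%), in 15.0% of all regions and in 23.5% of all gained regions. PU.1 (GAGGAAGT) was found in 5 of the 35 and 8.28% of all, RUNX (AACCACA) in 4 and 10.7%, AP-1 (TGANTCA) in 6 and 16.1%, NF-kB (GGNNTTTCC) in 4 and 3.36%, and CTCF in 1, R10, and 5.95%. Of the gained regions, R30 held a C/EBP match and R19 and R20 held none of the 6. Among the regions upstream of Ccl6, R22 and R23 held C/EBP and R23 also AP-1. R16, R29 and R33 were the shared regions with C/EBP, and R32, with the largest log2 difference in signal, held none of the 6 motifs. A match is a description of these letters and not of binding.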

How the data were processed

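ATAC-seq was performed on 3 control and 3 MMF-treated samples. According to the methods and processing notes, the authors trimmed reads with Trim Galore, aligned them to mm10 (GRCm38) by Bowtie2 and ran MACS2 on every sample by itself to call peaks; options were not given in the sources used here. The deposited lists hold, for each peak, a fold enrichment, which is a ratio of summit reads to local background, and −log10 p and −log10 q. Their deposited score was not used. The differential test of the reads named in the methods (PePr) was not repeated.

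The whole number of reads over each summit was solved from the fold enrichment and p, and matched the p within 0.1% for 100% of peaks. The background of a sample is the 5th percentile of its local backgrounds, and intervals for single counts were not computed. Peaks on the 19 autosomes, X and Y were merged into regions (overlap of at least 1 bp). Gene windows used the GENCODE M21 basic annotation, a pseudocount of 10 and a mean signal of at least 25. All shared regions, and all protein-coding genes, were fitted genome-wide by lmFit and eBayes of limma 3.58.1 (R 4.3.3), without a block, with Benjamini-Hochberg adjustment at 0.05. Both fits were tested on simulated data with known shifts. Totals over the cluster were compared by exact permutation over samples.

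Gene lists, markers, motifs and members were chosen with earlier results of these data known. The rule for naming took the 5 genes, the protein-coding genes in their windows, the called members of the lists, the 3 genes of highest correlation with Ccl6, and the regions gained, lost, called, at a start or among the 5 of highest mean rank. Other regions, such as R4, R22 to R24 and R32, were named after their values were seen. Replicate numbers were not treated as pairs: between control and MMF samples of the same number, deviations from the group means correlated at -0.00150, -0.0136 and -0.0137 over gene windows. A promoter reached 1000 bp to each side of a start. Alternatives were a −log10 q of at least 2, equal list length (58496 peaks), summit windows of 150 bp, other ranking measures, scales, pseudocounts, filters and window sizes, each sample left out and the replicate block. Centring on the median, shared regions alone and ranks among shared regions were added after the data were seen. One receptor gene and one sequence are not reported here. Python 3.11.15, pandas 2.3.3 and pysam 0.24.0 were used.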

Additional observations from a re-analysis of the deposited data

How the results depend on the processing

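The 5 gene windows were called higher with a −log10 q of at least 2, with pseudocounts of 1 and 25, with the sum of fold enrichment and with 50 kb windows. Equal list length, 5 kb windows and centring on the median each left 3, shared regions alone left 2, and no filter and the replicate block each left 4. Leaving out each sample in turn left 3 to 4, and no alternative called a window lower. With 5 kb windows the Ccl3 difference reversed to -0.025. Of the shared regions, 1 was called higher with all samples. By −log10 p and by summit signal 4 were, and with equal list length, centred summit signal, ranks among shared regions or the replicate block 0 were. Leaving out each sample gave 0 to 1. The 1 was R10, without control sample 2 (limma, adjusted p = 0.0445), a fit in which R8 was not called (adjusted p = 0.0630). Without any one MMF sample 0 regions of the genome were called, so those fits say nothing about single regions. The count called lower rose from 0 to 1 with a −log10 q of at least 2, equal list length, centred summit signal and ranks among shared regions. The cause of these changes was not tested. Gained regions numbered 2 at equal list length, 4 when 2 of 3 lists sufficed, and 3 to 5 with a sample left out. The summed signal difference was 411 and between 389 and 431 with a sample left out, and the replicate block (pairing by number) gave an exact p of 0.25, the smallest that 3 pairs allow. For single windows and regions, 225 values kept their side of the threshold, 29 lost the call and 11 gained one. The remaining value, the Ccl3 window at 5 kb, lost its call and changed sign. Direction was not kept in all of the 225. The uncalled differences of R15, R16, R31 and R33 changed sign in some alternatives. Weak peaks rest on few reads, and accessibility below the calling threshold was not measured.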
